A study of Homo sapiens with 24 samples.

Results

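Transcripts of 9 genes encoding negative feedback regulators of MAP kinase signalling were followed in the human liver cancer line HepG2. The set was listed by name, with earlier results of these data known. It comprised the phosphatase genes DUSP1, DUSP4, DUSP5, DUSP6 and DUSP10 and the Sprouty and SPRED genes SPRY2, SPRY4, SPRED1 and SPRED2. These are 9 of the 58676 gene rows counted in each library. HepG2 cells received a non-targeting siRNA (siControl) or an siRNA against 1 of the m6A-reader family members IGF2BP1, IGF2BP2 and IGF2BP3, and the study asked how loss of each RNA-binding protein changes the stability of transcripts. Cells were split after transfection, and 48 h later actinomycin D, which stops transcription, was given at 5 µg/ml for 0, 3 or 6 h before collection. The 4 siRNA conditions at 3 times make 12 groups of 2 libraries, 24 in all. The labels do not say whether the 2 libraries of a group came from separate transfections, so each p-value measures only the spread between these libraries, which may be technical. The knockdowns were transient and incomplete, and all 3 were compared with the same siControl libraries.

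Growth factor receptors signal through RAS, RAF and MEK to the kinase ERK, and active ERK switches on genes whose products then restrain the pathway. The DUSP proteins remove phosphate from the activated MAP kinases, Sprouty proteins act between the receptor and RAF, and SPRED proteins bring neurofibromin to the membrane to switch RAS off. The transcripts of such genes are known for rapid turnover, which lets their level follow the activity of the pathway closely.

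Reads assigned to genes ranged from 31843248 to 74252042 per library, and reads from the ERCC spike-in RNA from 50889 to 119088. Averaged over the 3 times, the targeted transcript was left at 17.7% in siIGF2BP1, 23.0% in siIGF2BP2 and 29.0% in siIGF2BP3 cells. The summed level of 10 hepatocyte genes was 60099.5 to 111315 CPM (counts scaled to library size) in every library, while 8 leukocyte, endothelial, fibroblast and basal epithelial genes together reached 2.05 to 4.31 CPM. Of the 9 feedback transcripts, 8 were among the 13136 genes that passed the filter for testing, at least 1 CPM in at least 2 libraries. DUSP4 did not pass, with 3 to 35 reads per library at 0 h, and is described by its values alone.

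The 3′ untranslated regions of these transcripts were searched on the sense strand for ATTTA, the core of AU-rich decay elements, and for the longer TATTTAT, each of which holds the core. The longer word occurred in 6 of the 9 (DUSP1, DUSP4, SPRY2, SPRY4, SPRED1 and SPRED2) and in 35.3% of 11359 expressed genes with an annotated 3′ untranslated region. That comparison makes no allowance for length. The median region of those genes was 1324 bases, while SPRED1, DUSP4, SPRY4 and SPRED2 had 5585, 3962, 3779 and 2650. The sites of DUSP4 and SPRED1 and the later ones of SPRY4 are not printed. Those of the compact DUSP1 and SPRY2 regions, the first pair in SPRY4 and the only site in SPRED2 are given as examples. They are printed 5′ to 3′ as they stand in the transcript (GRCh38, with the word in capitals).
DUSP1, chr5:172768645-172768669, minus strand: gctggtcctTATTTATttaacttca
DUSP1, chr5:172768377-172768401, minus strand: aatatacctTATTTATttttgtgta
DUSP1, chr5:172768184-172768208, minus strand: tttgctgatTATTTATgacctgaaa
SPRY2, chr13:80336124-80336148, minus strand: tgtaaagaaTATTTATttgaagttt
SPRY2, chr13:80336088-80336112, minus strand: aaaaaagaaTATTTATtttaagagg
SPRY4, chr5:142312399-142312423, minus strand: aaccataggTATTTATtgattggag
SPRY4, chr5:142312355-142312379, minus strand: tttcggcttTATTTATgtaacattt
SPRED2, chr2:65311457-65311481, minus strand: aagtgccccTATTTATttcaataag

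DUSP1 held 4 ATTTA and 3 TATTTAT in 666 bases, which is more ATTTA per kilobase than 94.7% of those genes. SPRED1 held 24 ATTTA and 5 TATTTAT in 5585 bases, and SPRY4 8 and 4 in 3779 bases. DUSP6, in contrast, held a single ATTTA in 2019 bases and no TATTTAT, DUSP10 held 3 ATTTA and no TATTTAT, and DUSP5 held neither word in 1107 bases. The share of genes with fewer ATTTA per kilobase was 87.1% for SPRED1, 72.8% for DUSP10 and 65.3% for SPRY2. It was 57.6% for SPRY4, 53.4% for SPRED2, 46.9% for DUSP4 and 29.4% for DUSP6. These matches describe letters in the annotated region and were not tested for function.

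Before actinomycin D the transcripts spanned a wide range of abundance. Per kilobase of exon, siControl cells held SPRED2 at 14.7 ± 0.363 CPM (SD, n = 2), DUSP6 at 10.9 ± 0.183 CPM and SPRY4 at 6.95 ± 0.178 CPM. DUSP1 followed at 3.82 ± 0.226 CPM, SPRED1 at 3.00 ± 0.117 CPM and SPRY2 at 1.77 ± 0.0982 CPM per kilobase. The least abundant were DUSP5 at 0.779 ± 0.0649 CPM, DUSP10 at 0.521 ± 0.0523 CPM and DUSP4 at 0.0425 ± 0.0146 CPM per kilobase. In siControl every neighbour in this order was separated by more than the summed SDs. In siIGF2BP1 cells SPRY4 (4.84 ± 0.137 CPM per kilobase) and DUSP1 (4.47 ± 0.709) were not, nor were DUSP5 (0.750 ± 0.269) and DUSP10 (0.580 ± 0.0726). DUSP5 and DUSP10 were also not separated in siIGF2BP2 and siIGF2BP3, and in siIGF2BP3 DUSP10 had the higher mean. DUSP1 (3.55 ± 0.228) and SPRED1 (3.22 ± 0.105) were not separated in siIGF2BP3.

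DUSP6 and SPRY4 were lower before actinomycin D in each of the 3 knockdowns, and the other 6 tested transcripts were not called in any of them. Thus 2 of 8 were called lower in each comparison (edgeR's quasi-likelihood test, adjusted p under 0.05), against 6.5%, 5.47% and 4.47% of all genes in the order siIGF2BP1, siIGF2BP2, siIGF2BP3. None was called higher, against 9.43%, 6.65% and 4.93% of all genes. The median log2 difference of the 8 was -0.05, -0.05 and -0.07 in the same order, beside 0.01, 0.02 and 0.00 over all genes tested. Fewer cells of a kind and less RNA per cell cannot be told apart in such bulk libraries. The comparisons share their control libraries, so they are not independent of one another. Because the set was chosen with earlier results of these data known, the shares describe it and do not test it.

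**Figure D1:**
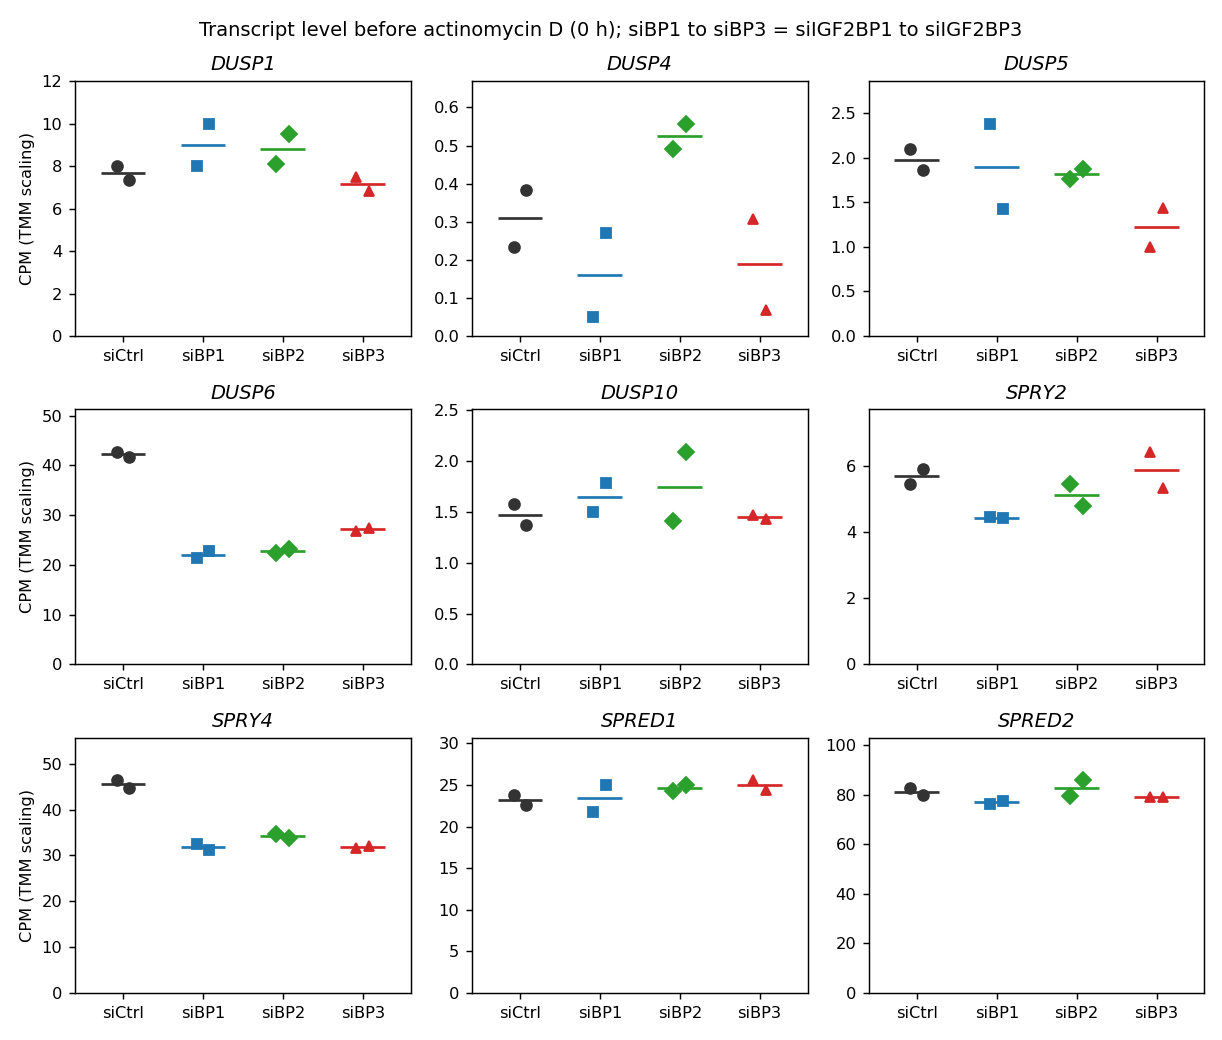
Level of each transcript at 0 h in CPM after TMM scaling (y axis, from 0), in siControl and the 3 knockdowns (x axis). Each point is 1 library and each line the mean of 2. All 6 knockdown libraries of DUSP6 and SPRY4 lie below both siControl libraries, while DUSP1 reaches 10.0 CPM in 1 siIGF2BP1 library against 8.01 and 7.36 CPM in siControl, and SPRED2 stays between 76.2 and 85.7 CPM.

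DUSP6 encodes the cytoplasmic phosphatase that acts selectively on ERK (ENSG00000139318.7, chromosome 12, 89347235 to 89352501, minus strand). It stood at 42.7 and 41.7 CPM in the siControl libraries, 21.3 and 22.7 in siIGF2BP1, 22.5 and 23.3 in siIGF2BP2 and 26.9 and 27.5 in siIGF2BP3. No knockdown library overlapped a control library, and the gap was many times the difference within any pair. The log2 difference was -0.94 (SE 0.130, adjusted p 9.17e-07 in edgeR) in siIGF2BP1, which is 0.521 times the control level. It was -0.88 (SE 0.130, adjusted p 3.37e-06 in edgeR) in siIGF2BP2 and -0.63 (SE 0.129, adjusted p 0.00075 in edgeR) in siIGF2BP3. These calls rest on the tool: DESeq2 gave nearly the same differences with an SE of 0.359, and adjusted p-values of 0.049, 0.0739 and 0.28, so that the last 2 no longer passed. Every other alternative kept them, with adjusted p from 2.14e-19 to 0.0236 over the other settings and left-out libraries. The annotation places a noncoding gene (ENSG00000274021) on the opposite strand over 28.6% of the exon bases of DUSP6. It held 0 to 18 reads per library, and the strand setting of the counting was not stated.

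SPRY4 encodes a Sprouty inhibitor of receptor tyrosine kinase signalling (ENSG00000187678.9, chromosome 5, 142310427 to 142326455, minus strand). Its level was 46.4 and 44.7 CPM in siControl, 32.4 and 31.1 in siIGF2BP1, 34.6 and 33.8 in siIGF2BP2 and 31.7 and 32.2 in siIGF2BP3. Again the groups did not overlap. The log2 difference was -0.52 (SE 0.0819, adjusted p 9.74e-06 in edgeR) in siIGF2BP1, -0.41 (SE 0.0813, adjusted p 0.000333) in siIGF2BP2 and -0.51 (SE 0.0822, adjusted p 2.5e-05) in siIGF2BP3. SPRY4 passed under every alternative, DESeq2 and ERCC scaling included.

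The related SPRY2 was not called in any knockdown. It stood at 5.48 and 5.93 CPM in siControl, 4.46 and 4.43 in siIGF2BP1, 5.47 and 4.79 in siIGF2BP2 and 6.43 and 5.34 in siIGF2BP3. The siIGF2BP1 and siIGF2BP2 libraries lay below both controls, by a little in siIGF2BP2, and the siIGF2BP3 libraries overlapped them. In siIGF2BP1 the log2 difference was -0.36 (95% interval -0.77 to 0.05, adjusted p 0.271 in edgeR), so a fall of the size seen for SPRY4 is inside the interval. The same holds in siIGF2BP2, at -0.15 (95% interval -0.56 to 0.26). In siIGF2BP3 the difference was 0.05 (95% interval -0.36 to 0.46), which leaves out the SPRY4 estimate of -0.51.

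The SPRED transcripts were the most precisely measured of those not called. SPRED2 was at 82.5 and 79.6 CPM in siControl and between 76.2 and 85.7 CPM in the 6 knockdown libraries. Its 95% intervals ran from -0.20 to 0.04 in siIGF2BP1, -0.09 to 0.14 in siIGF2BP2 and -0.15 to 0.09 in siIGF2BP3 on the log2 scale, so that all 3 lie above the estimates for SPRY4. Its libraries lay below both controls in siIGF2BP1 and, by a little, in siIGF2BP3. SPRED1 was at 23.9 and 22.6 CPM in siControl and between 21.7 and 25.5 in the knockdowns, with intervals inside -0.20 and 0.31. The siIGF2BP2 and siIGF2BP3 libraries lay above both controls and those of siIGF2BP1 overlapped them.

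DUSP1, which encodes a nuclear phosphatase of p38, JNK and ERK, was at 8.01 and 7.36 CPM in siControl. It stood at 7.99 and 10.0 in siIGF2BP1, 8.10 and 9.50 in siIGF2BP2 and 7.47 and 6.82 in siIGF2BP3, so that the siIGF2BP2 libraries alone did not overlap the controls. Its log2 differences were 0.22, 0.19 and -0.10, with intervals that all include 0 and reach 0.62 at most. DUSP10, which acts on p38 and JNK, lay between 1.37 and 2.09 CPM in all 8 libraries and the groups overlapped in every comparison. DUSP5, a nuclear ERK phosphatase, was at 2.09 and 1.86 CPM in siControl and at 1.00 and 1.43 in siIGF2BP3. That difference of -0.71 (95% interval -1.50 to 0.08, adjusted p 0.316 in edgeR) missed the threshold although the groups did not overlap. DUSP4, the nuclear relative of DUSP1, was at 0.234 and 0.384 CPM in siControl, 0.0486 and 0.269 in siIGF2BP1, 0.492 and 0.558 in siIGF2BP2 and 0.307 and 0.0682 in siIGF2BP3, levels too low for a test.

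The knockdowns were also compared with each other at 0 h. None of the 8 was called in any of the 3 comparisons, against 18.7% of all genes between siIGF2BP1 and siIGF2BP2, 14.3% between siIGF2BP1 and siIGF2BP3 and 9.19% between siIGF2BP2 and siIGF2BP3. For DUSP6 the difference of siIGF2BP1 from siIGF2BP3 was -0.31 (95% interval -0.57 to -0.04, adjusted p 0.13 in edgeR). For SPRY4 the 3 differences lay between -0.11 and 0.10.

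**Figure D2:**
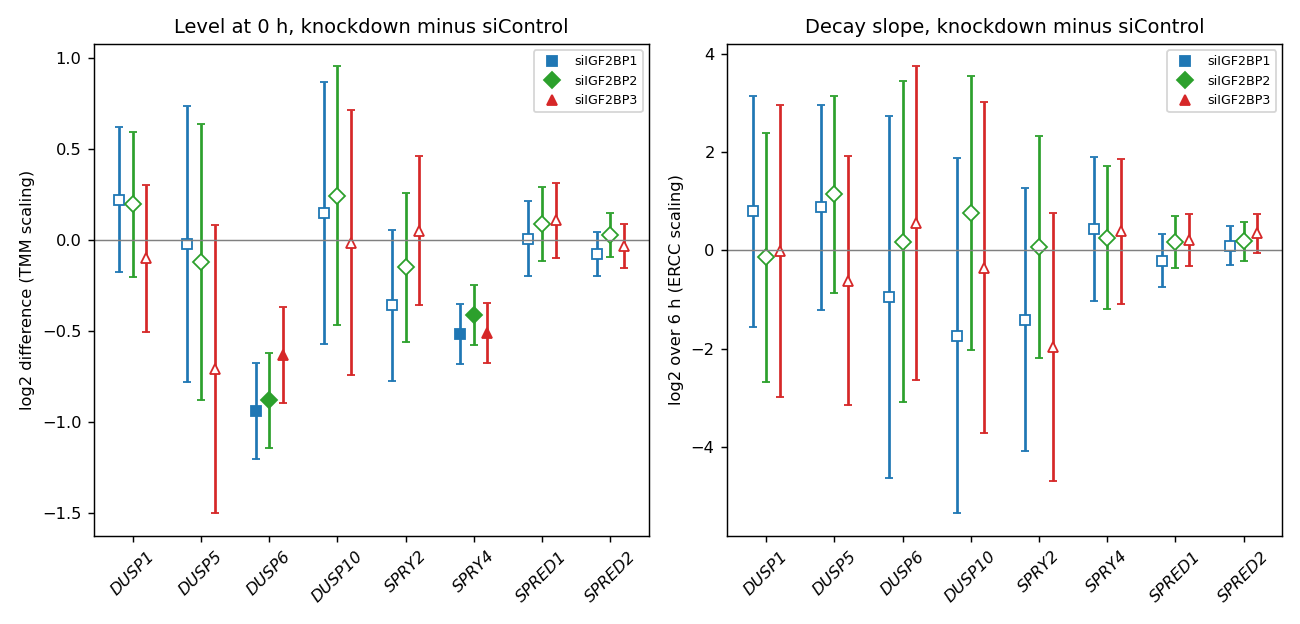
Log2 difference of each knockdown from siControl with its 95% interval, for the level at 0 h (left) and for the decay slope over 6 h (right). The 8 tested transcripts are on the x axis, and filled symbols have an adjusted p under 0.05. On the left DUSP6 and SPRY4 are filled and negative in all 3 knockdowns, and on the right no symbol is filled.

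After transcription was stopped all 8 tested transcripts fell in each of the 4 conditions. A fall was also called for 80.3% of all genes in the control and for 69.1%, 71.3% and 67.2% in the knockdowns of IGF2BP1, IGF2BP2 and IGF2BP3, so the call itself says little about the set. On the spike-in scale, the fitted slope in siControl had a median of -5.21 log2 over 6 h for the 8, beside -0.88 for all genes tested. DUSP6 had the steepest slope at -6.57 (SE 1.02), followed by DUSP1 at -5.84 (SE 0.776), SPRY2 at -5.65 (SE 0.683), DUSP5 at -5.33 (SE 0.642) and DUSP10 at -5.09 (SE 0.885). SPRED2 (-3.61, SE 0.140), SPRY4 (-3.31, SE 0.515) and SPRED1 (-3.17, SE 0.183) were shallower.

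**Figure D3:**
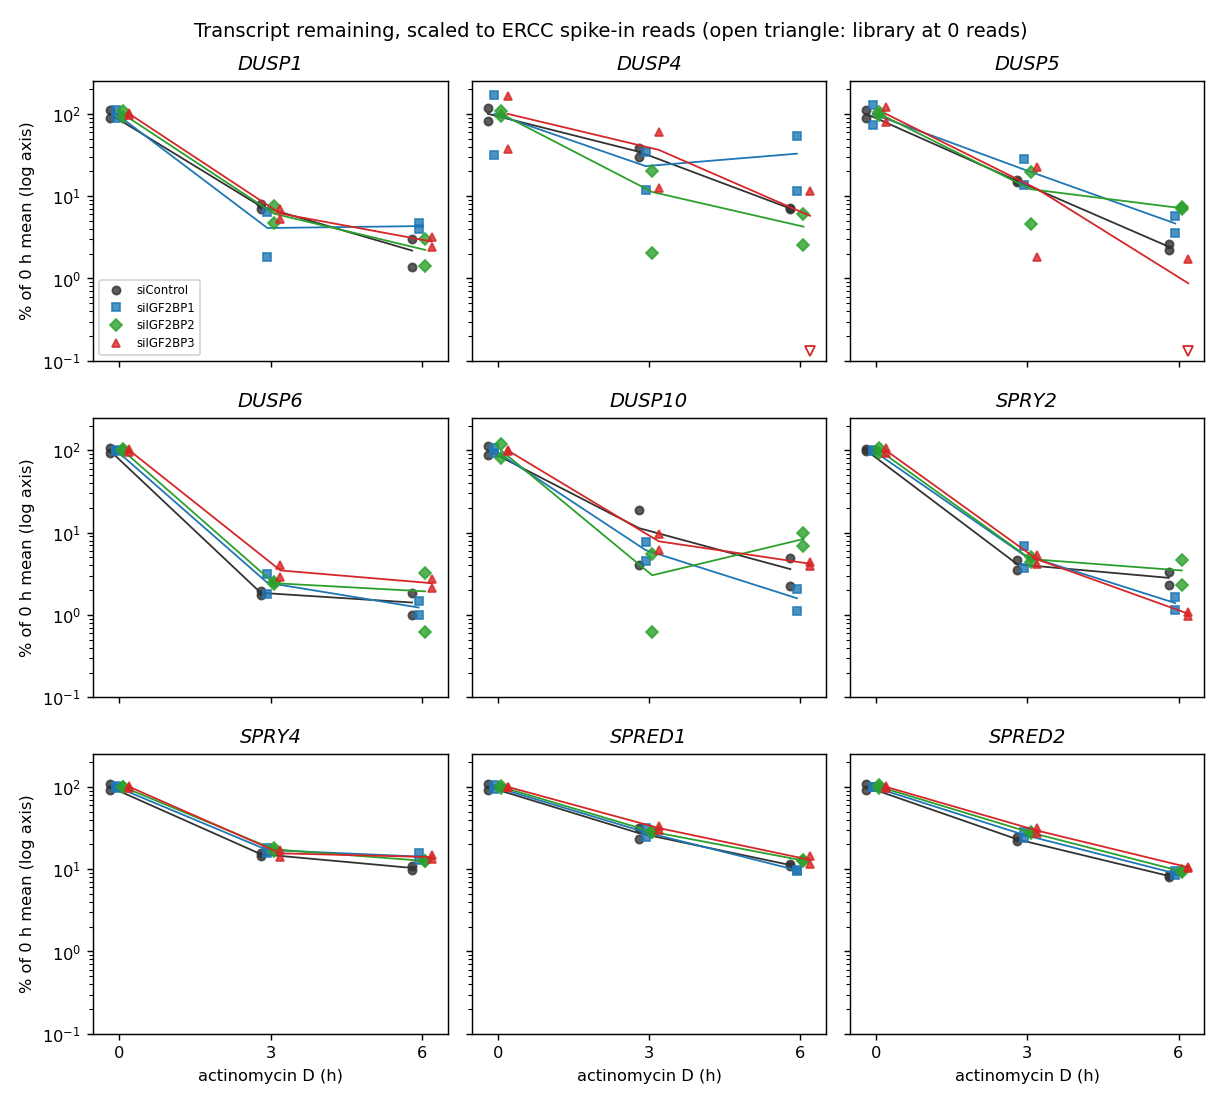
Transcript remaining as a percentage of the mean 0 h level of the same condition (y axis, log scale, scaled to ERCC reads) against hours of actinomycin D (x axis, conditions shifted sideways for clarity). Points are libraries, lines join the means of 2 libraries and open triangles mark a library with 0 reads. DUSP6 and SPRY2 drop steeply to 3 h and then level off, while SPRED1 and SPRED2 decline almost along a straight line.

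In siControl the loss was concentrated in the first 3 h for most of the set. DUSP6 had 1.96% and 1.75% of its 0 h level left at 3 h, and 1.84% and 0.991% at 6 h. SPRY2 had 3.56% and 4.68% left at 3 h and 3.32% and 2.32% at 6 h. For SPRY4 the remaining share was 15.9% and 14.5% at 3 h and 10.9% and 9.73% at 6 h. Most of the loss of these 3 thus came before 3 h, with less, but for SPRY4 still a called fall, after it. SPRED2 went from 24.3% and 21.7% at 3 h to 8.48% and 8.06% at 6 h, and SPRED1 from 23.2% and 31.4% to 10.9% and 11.5%. Both thus also lost most of their level before 3 h, so they differ from those 3 in degree.

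All 8 fell between 0 and 3 h (61.3% of all genes were called lower), with log2 changes from -1.86 (SPRED1) to -5.75 (DUSP6) beside a median of -0.44 over all genes. Between 3 and 6 h 6 of 8 fell (64.9% of all genes). DUSP6 changed by -0.38 (95% interval -0.83 to 0.08, adjusted p 0.144 in edgeR) and SPRY2 by -0.55 (95% interval -1.44 to 0.34, adjusted p 0.271), and neither was called. SPRY4 fell by 0.55 (95% interval -0.80 to -0.31, adjusted p 3.11e-05). The early and late intervals of DUSP6, SPRY2, SPRY4, DUSP1, SPRED1 and SPRED2 did not overlap; the difference itself was not tested. In this fit edgeR gave every gene the common trend of the spread, which makes its p-values very small. With TMM scaling the late changes of SPRY4 (-0.14, adjusted p 0.285) and DUSP10 (-1.13, adjusted p 0.203) were not called, and the all-gene calls at 3 h split into 4565 higher and 4508 lower in place of 119 and 8053. DUSP10 rested on 15 and 4 reads at 3 h and 7 and 3 at 6 h. Its late change was -1.53 with all libraries and -0.14 without the first siControl library at 3 h. DUSP6 changed by -0.90 without the first siControl library at 6 h and then passed the threshold (adjusted p 0.00636 in edgeR).

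**Figure D4:**
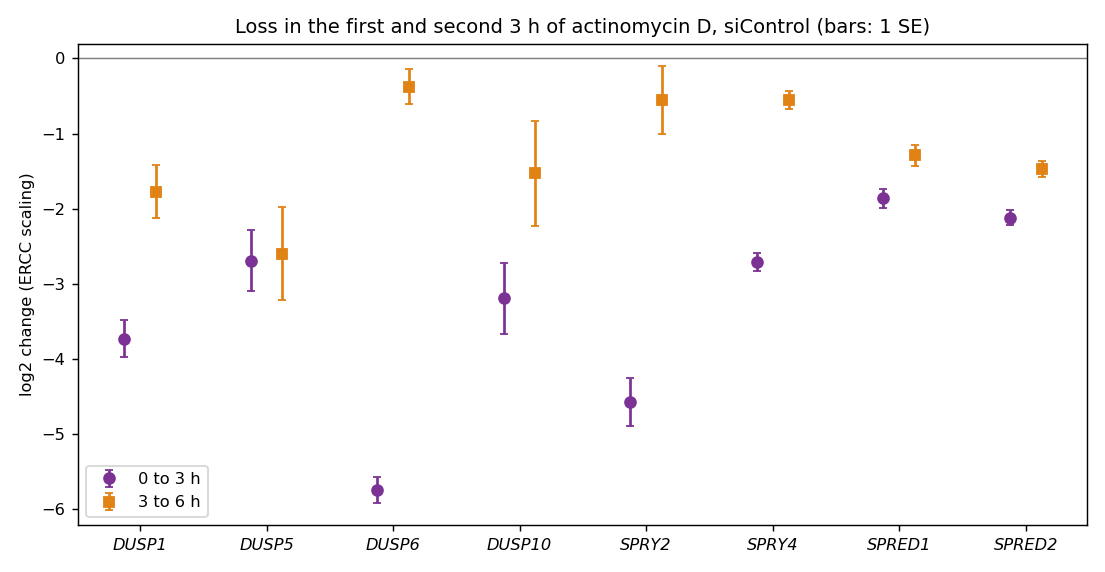
Log2 change of each tested transcript in siControl cells over the first (0 to 3 h) and second (3 to 6 h) 3 h of actinomycin D, on the ERCC scale, with bars of 1 SE. The early change of DUSP6 is -5.75 and its late change -0.38, whereas DUSP5 lost about as much in each interval.

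Half-lifetime was computed from the mean of the decay rates from 0 to 3 h and from 0 to 6 h. In siControl it was 0.680 h for DUSP6 (0.659 to 0.703 at 1 SE of the rate), and 0.0636% of the expressed genes with a half-lifetime were shorter. SPRY2 followed at 0.836 h, DUSP1 at 0.924 h, DUSP10 at 1.08 h, DUSP5 at 1.11 h, SPRY4 at 1.38 h and SPRED2 at 1.53 h. SPRED1 and DUSP4 were the longest, both at 1.74 h. All 9 were under 2 h in siControl, siIGF2BP2 and siIGF2BP3, and 8 of 9 in siIGF2BP1, against 10.9%, 9.82%, 9.91% and 10.0% of genes with a half-lifetime. The exception was DUSP4 at 2.06 h, which rested on 4 and 11 reads at 0 h and ran from 1.48 to 15.2 h when 1 library was left out. DUSP4 in siIGF2BP3 (1.71 h) ran from 1.18 to 4.29 h, so its place under 2 h is not settled either. The background shares cover genes with a mean of at least 1 CPM over all libraries. DUSP4, DUSP5 and DUSP10 did not reach that mean, so for them the background is an unlike set. The control median over the 9 was 1.11 h, and knockdown of IGF2BP1, IGF2BP2 and IGF2BP3 gave medians of 1.35, 1.10 and 1.01 h, respectively. Expressed genes with a half-lifetime had a median of 6.25 h in the control. For the knockdowns of IGF2BP1, IGF2BP2 and IGF2BP3 it was 6.94, 6.53 and 7.03 h. Genes without a positive decay rate have no half-lifetime and are left out of these medians. They were 1141, 1832, 1174 and 1956 of 12148 expressed genes in siControl, siIGF2BP1, siIGF2BP2 and siIGF2BP3, so the medians cover different genes and leave out the most stable. The 1 SE ranges of DUSP6, SPRY2 and DUSP1 did not overlap, while that of DUSP10 (0.915 to 1.33 h) overlapped those of DUSP1, DUSP5 and SPRY4. The interval used matters most for the transcripts that levelled off, since DUSP6 had a half-lifetime of 0.522 h from 0 to 3 h and 7.68 h from 3 to 6 h, SPRY2 0.652 and 5.51 h and SPRY4 1.10 and 5.40 h. For DUSP5 these were 1.11 and 1.13 h.

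**Figure D5:**
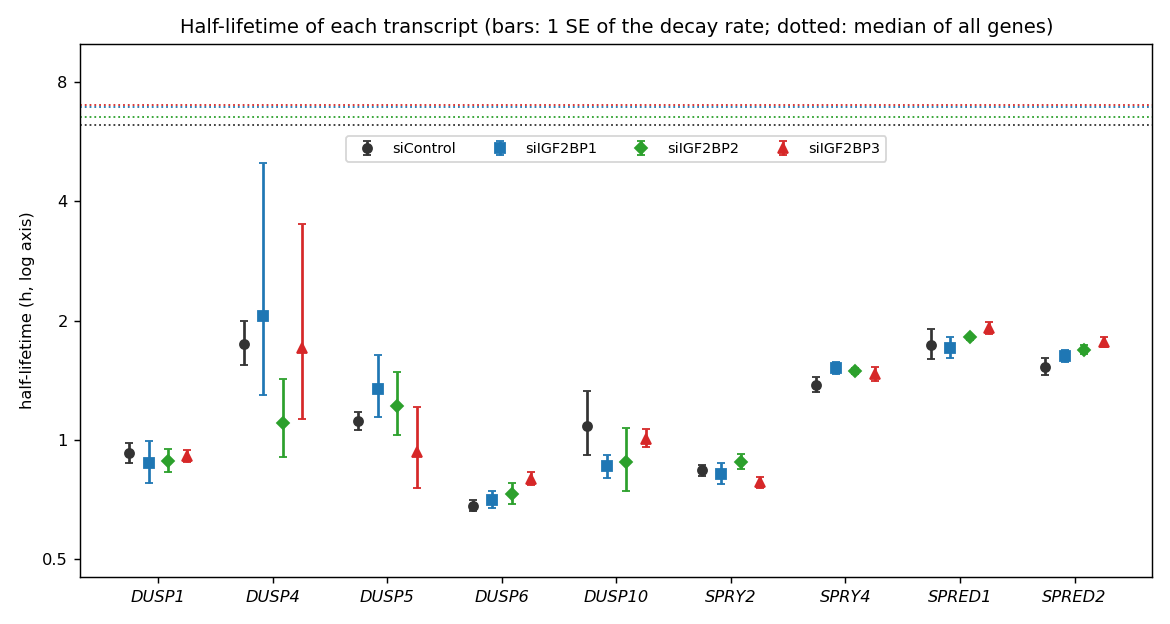
Half-lifetime in hours (y axis, log scale) of the 9 transcripts in siControl and the 3 knockdowns, with bars of 1 SE of the decay rate. Dotted lines give the median of the expressed genes with a half-lifetime in each condition, 6.25 h in siControl. Every point lies below those lines, and the wide bars belong to DUSP4, DUSP5 and DUSP10, which had few reads.

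The question of the time course is whether a knockdown changed the decay. No feedback transcript was called for a difference in slope in any knockdown, and few genes were: 0.0152%, 0.0% and 0.0228% of all genes in the order siIGF2BP1, siIGF2BP2, siIGF2BP3. At an unadjusted p under 0.05 the counts over all genes were 1436, 896 and 2113. They were 520, 260 and 696 without the first siControl library at 0 h, 3614, 2972 and 4338 without the second, and 518, 426 and 424 with TMM scaling. A positive difference means slower loss in the knockdown, and the median over all genes was itself 0.19, 0.17 and 0.22 on the ERCC scale. Without the first siControl library at 0 h it was 0.11, 0.093 and 0.14, without the second 0.27, 0.25 and 0.30, and in siIGF2BP2 it was 0.045 without the second library at 6 h. DUSP6 differed by -0.95, 0.18 and 0.56 log2 over 6 h in siIGF2BP1, siIGF2BP2 and siIGF2BP3, with 95% intervals from -4.64 to 2.75, -3.09 to 3.45 and -2.64 to 3.75. Such intervals exclude very little. SPRED2 was measured far more closely, at 0.10 (95% interval -0.30 to 0.50), 0.19 (-0.21 to 0.59) and 0.35 (-0.05 to 0.75).

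The straight line over 6 h describes SPRED1 and SPRED2 better than DUSP6, so the change from 0 h to a single time was also compared. From 0 to 3 h, a comparison chosen after seeing the data, DUSP6 had 3.11% and 1.81% left in siIGF2BP1, 2.50% and 2.37% in siIGF2BP2 and 4.06% and 2.88% in siIGF2BP3. These shares are relative to a 0 h level that was itself lower in each knockdown. At 3 h they rested on 45 and 50 reads in siControl and 22 to 96 in the knockdowns. The difference in loss of DUSP6 was 0.41 log2 (95% interval -0.17 to 0.99) in siIGF2BP1 and 0.40 (-0.13 to 0.92) in siIGF2BP2. In siIGF2BP3 it was 0.97 log2 (95% interval 0.46 to 1.47) and missed the threshold after adjustment (adjusted p 0.138 in edgeR). The half-lifetime of DUSP6 in siIGF2BP3 was 0.797 h (0.769 to 0.827 at 1 SE). SPRY4 differed by 0.17, 0.19 and 0.05 log2 from 0 to 3 h in the 3 knockdowns, beside all-gene medians of 0.059, -0.042 and 0.056. From 0 to 6 h it differed by 0.45, 0.28 and 0.43, beside all-gene medians of 0.19, 0.17 and 0.22, with adjusted p of 0.163, 0.425 and 0.13 in edgeR. Its half-lifetime was 1.52, 1.49 and 1.46 h, against 1.38 h in siControl. Over all alternatives of the slope difference, adjusted p for DUSP6 and SPRY4 ranged from 0.113 to 1, and none passed. For DUSP5 and DUSP4 in siIGF2BP3 1 library at 6 h held 0 reads and the other a single read, so their half-lifetimes there (0.930 and 1.71 h) rest on a count that cannot set them.

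Among 9 further DUSP, Sprouty, SPRED and related genes, 5 were tested at 0 h. In siIGF2BP1 DUSP9, which also acts on ERK, was higher by 0.27 (SE 0.0357, adjusted p 2.63e-07 in edgeR) and SPRY1 was lower by a log2 difference of -0.42 (SE 0.120, adjusted p 0.0128). None was called in siIGF2BP2 or siIGF2BP3. Over all genes 9.43% were called higher and 6.5% lower in siIGF2BP1. The shares were 6.65% and 5.47% in siIGF2BP2 and 4.93% and 4.47% in siIGF2BP3, so 1 call or none among 5 says little. All 5 fell with time in siControl, as did 80.3% of all genes, SPRY1 with a slope of -3.33 and DUSP9 with -0.20.

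The counts of the pathway lists at 0 h are to be read against all genes, of which 9.43%, 6.65% and 4.93% were called higher and 6.5%, 5.47% and 4.47% lower in siIGF2BP1, siIGF2BP2 and siIGF2BP3. The lists, like the members, were chosen with earlier results of these data known. Upstream in the pathway, 14 of 18 growth factors and receptors were tested, and 4 rose and 2 fell in siIGF2BP1, 3 rose and 1 fell in siIGF2BP2 and 3 rose and 2 fell in siIGF2BP3. The single fall among 14 in siIGF2BP2 is near the share over all genes. FGFR3, a fibroblast growth factor receptor, rose by 0.47, 0.40 and 0.38 on the log2 scale, and KLB, the co-receptor for endocrine fibroblast growth factors, by 0.35, 0.24 and 0.27. TGFA, a ligand of the epidermal growth factor receptor, had a log2 difference of -0.53 in siIGF2BP1 (adjusted p 1.25e-06 in edgeR). Of 13 adaptors and RAS regulators, 4 rose and 3 fell in siIGF2BP1, 4 rose and 1 fell in siIGF2BP2 and 2 rose in siIGF2BP3. FRS2, the docking protein of fibroblast growth factor receptors, was at 25.4 and 25.7 CPM in siControl and 14.5 and 14.3 in siIGF2BP1, a log2 difference of -0.83 (adjusted p 2.44e-07 in edgeR), and it also fell in siIGF2BP2 (-0.54). GRB2, the adaptor that carries SOS to receptors, rose by 0.40, 0.29 and 0.40.

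Of 17 tested kinases and scaffolds of the MAP kinase cascades, 5 rose in siIGF2BP1, 2 in siIGF2BP2 and 2 in siIGF2BP3, and none fell. All genes were called higher at 9.43%, 6.65% and 4.93%, so 2 of 17 is close to the background. MAP2K2, which encodes a kinase that activates ERK, was higher by 0.27, 0.19 and 0.17. Downstream, 14 of 15 genes known to respond to ERK were tested. In siIGF2BP1 1 rose and 5 fell, in siIGF2BP2 2 fell and in siIGF2BP3 5 fell, with a median log2 difference of -0.18, -0.03 and -0.29 over the list beside 0.01, 0.02 and 0.00 over all genes, of which 6.5%, 5.47% and 4.47% were called lower. EGR1, an immediate early transcription factor, was at 13.8 and 10.3 CPM in siControl and between 6.14 and 7.86 CPM in the 6 knockdown libraries. Its log2 differences were -0.73, -0.67 and -0.91 (adjusted p 0.0061, 0.0151 and 0.0014 in edgeR). ETV5, a transcription factor of the same response, was lower by a log2 difference of -0.48 in siIGF2BP2, and PHLDA1 had differences of -0.35 in siIGF2BP1 and -0.26 in siIGF2BP3. JUN went both ways, with 0.30 in siIGF2BP1 and -0.36 in siIGF2BP3.

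The genes whose log2 CPM over the 8 libraries at 0 h was most like the mean of the 8 tested feedback transcripts were DSP (Pearson r 0.973), EXTL3 (0.967), ADGRG6 (0.958), ITPRID2 (0.950) and SLC7A2 (0.947). These values describe 8 points from 4 conditions, which share their libraries. They were the highest in a search that began with 13136 genes and kept those with a mean of at least 5 CPM. With so many genes and 8 points, a high r is no evidence of a link. The feedback transcripts themselves had no common profile over these libraries. Their pairwise r ran from -0.75 (DUSP5 and SPRED1) to 0.90 (DUSP6 and SPRY4), so likeness to their mean is not likeness to each of them.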

How the data were processed

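According to the protocols, the authors spiked each sample with ERCC RNA in proportion to total RNA, purified mRNA, made stranded libraries and sequenced single-end reads. The submitters' processing notes name Trimmomatic 0.39, HISAT2 2.1.0 and hg38; reads per GENCODE gene were counted with HTSeq, whose strand and overlap settings are not given in the sources used here. The deposited values are raw read counts, not normalized. Summary rows (13.6% to 17.1% of each library) and 45 Y-copy pseudoautosomal rows were left out. Symbols were matched for 58207 identifiers and not for 469. Sequences and positions are from GRCh38 with a later GENCODE annotation.

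Counts were tested with edgeR 4.0.16 (R 4.3.3), with Benjamini-Hochberg adjustment over 13136 genes with at least 1 CPM in at least 2 libraries. Levels at 0 h used 12 group means and TMM scaling. Decay slopes (log2 over 6 h) used an intercept and slope per condition, scaled by ERCC reads; early and late changes used group means on that scale. SE came from the F statistic and intervals from the t distribution. The decay rate was averaged from the natural-log loss per hour to 3 h and to 6 h, on ERCC-scaled means, and half-lifetime was ln 2 over that rate. Genes with a mean of at least 1 CPM and a positive rate were the background. Intervals cover the spread between libraries, and PCR duplicates could not be removed.

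Alternatives were DESeq2 1.42.0, the other scaling, no count filter, fits on the compared groups, single times, a replicate block (shared, or in each condition) and each library left out. Tests were tried on simulated data. Named genes were all 9 members, at most 4 called genes with the smallest p of each pathway list per comparison (EGR1 and JUN are given in every knockdown where called, beyond that limit), and the 5 genes most like the members with a mean of at least 5 CPM. The members and lists were chosen with earlier results of these data known.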

Additional observations from a re-analysis of the deposited data

How the results depend on the processing

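The number of feedback transcripts called at 0 h was 2 in each knockdown under every alternative except DESeq2, which gave 1 in siIGF2BP2 and 1 in siIGF2BP3; the cause was not tested. All 8 slopes in each condition kept their direction and call. ERCC scaling at 0 h split the calls over all genes into 253 higher and 396 lower in siIGF2BP1, 563 and 169 in siIGF2BP2 and 388 and 83 in siIGF2BP3, in place of 1239 and 854, 874 and 719, and 647 and 587. With TMM scaling the siControl slopes split into 4773 higher and 5085 lower in place of 33 and 10551, with similar splits in the knockdowns, and late changes into 2904 and 3280 in place of 20 and 8522. Slope differences were called for 2, 0 and 3 genes, for 8, 6 and 25 by DESeq2, for 86, 72 and 195 from 0 h and 6 h alone, and for 12 in siIGF2BP1 and 540 in siIGF2BP3 without the second siControl library at 0 h; none was a feedback transcript. Fitting only the 4 libraries compared called 2383 genes in siIGF2BP2 at 0 h in place of 1593. Deviations of same-numbered siControl and knockdown libraries at 0 h correlated at -0.03, -0.06 and -0.02 over 9555 genes, so no deviation shared by replicate number was seen there. Whether same-numbered libraries were handled together cannot be told from these values. Within siIGF2BP3, in contrast, the libraries at 0 and 3 h, 0 and 6 h, and 3 and 6 h correlated at 0.24, 0.18 and 0.22, while the other conditions stayed under 0.1. A replicate block in each condition, chosen after seeing the data, gave the same 8 falls in every condition and 0 slope differences, with DUSP6 in siIGF2BP3 at a slope difference of 0.63 (adjusted p 0.851 in edgeR). With a replicate block shared by all conditions DUSP6 in siIGF2BP1 was -0.94 at 0 h (adjusted p 6.63e-07 in edgeR), and neither block changed a call of a feedback transcript. Of 108 half-lifetime values under other scalings or single times, 75 moved by over 1 SD, but all 9 in siControl stayed under the median of the expressed genes with a half-lifetime. At 0 reads a half-lifetime could not be had for DUSP4 and DUSP5 in siIGF2BP3 without the second 6 h library. Few reads limit DUSP4, DUSP5, DUSP10 and the late times of DUSP1, DUSP6 and SPRY2.

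Differences changed sign as follows, none of them past the threshold where the sign changed. With ERCC scaling the level at 0 h was SPRED1 -0.027 in siIGF2BP1, DUSP10 0.062 in siIGF2BP3, SPRED2 0.045 in siIGF2BP3. With only the 4 libraries compared the level at 0 h was SPRED1 -0.012 in siIGF2BP1. With TMM scaling the late change in siControl was DUSP6 0.035 and the slope difference was SPRED2 -0.093 in siIGF2BP1, DUSP6 -0.021 in siIGF2BP2, SPRY2 -0.069 in siIGF2BP2, SPRED1 -0.013 in siIGF2BP2, SPRED1 -0.016 in siIGF2BP3. With 0 h and 3 h alone the slope difference was DUSP1 -0.87 in siIGF2BP1, DUSP6 0.41 in siIGF2BP1, SPRY2 0.36 in siIGF2BP1, SPRED1 0.031 in siIGF2BP1, DUSP5 -0.31 in siIGF2BP2, DUSP10 -1.84 in siIGF2BP2, SPRY2 0.22 in siIGF2BP3. With DESeq2 with ERCC size factors the slope difference was DUSP1 0.017 in siIGF2BP2. With 0 h and 6 h alone the slope difference was DUSP1 0.069 in siIGF2BP2, DUSP1 0.38 in siIGF2BP3, DUSP10 0.19 in siIGF2BP3. With the shared replicate block the slope difference was DUSP1 0.013 in siIGF2BP3, and with a replicate block in each condition 0.027. Leaving out 1 library at a time, the level at 0 h ran from -0.47 to 0.27 for DUSP5 in siIGF2BP1, from -0.094 to 0.11 for SPRED1 in siIGF2BP1, from -0.063 to 0.51 for DUSP10 in siIGF2BP2, from -0.031 to 0.080 for SPRED2 in siIGF2BP2, from -0.12 to 0.087 for DUSP10 in siIGF2BP3, from -0.10 to 0.17 for SPRY2 in siIGF2BP3. Leaving out 1 library at a time, the slope difference ran from -0.084 to 1.70 for DUSP1 in siIGF2BP1, from -2.40 to 0.58 for DUSP6 in siIGF2BP1, from -0.090 to 0.22 for SPRED2 in siIGF2BP1, from -1.33 to 0.76 for DUSP1 in siIGF2BP2, from -3.09 to 1.71 for DUSP6 in siIGF2BP2, from -0.65 to 1.55 for DUSP10 in siIGF2BP2, from -1.29 to 1.13 for SPRY2 in siIGF2BP2, from -0.063 to 0.59 for SPRY4 in siIGF2BP2, from -0.021 to 0.29 for SPRED1 in siIGF2BP2, from -0.0027 to 0.31 for SPRED2 in siIGF2BP2, from -0.91 to 0.89 for DUSP1 in siIGF2BP3, from -0.48 to 2.09 for DUSP6 in siIGF2BP3, from -0.94 to 0.45 for DUSP10 in siIGF2BP3.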
